A study of Mus musculus with 6 samples.

Results

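The genes described here are 7 noncoding host genes of small nucleolar RNAs (snoRNAs), *Snhg1*, *Snhg3*, *Snhg5*, *Snhg6*, *Snhg8*, *Snhg12* and *Gas5*, chosen by name among 46078 genes listed. *Snhg1* itself was not analysed here, although the snoRNAs within it were. Of the other 6 genes, 5 had enough reads to be tested by counts, and all 6 could be tested by TPM, a measure of transcript abundance corrected for transcript length. Differentiating C2C12 cells, an immortalized mouse myoblast line, were either *Hnrnpa2b1* knockout (KO) or wild type (WT), with 3 libraries of each, called KO1 to KO3 and WT1 to WT3. Both genotypes grew for 24 hr and then differentiated for 2 days after serum withdrawal with ITS supplement, and libraries were made from total RNA after removal of ribosomal RNA. The KO cells came from CRISPR-Cas9 with puromycin selection. The methods describe independent clones of each genotype but do not say which clone gave which library, so the p-values measure the spread between these libraries, and the part of single clones in that spread was not tested.

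A snoRNA host gene is transcribed and spliced, and its introns are trimmed to snoRNAs, which guide chemical modification of ribosomal RNA. Box C/D snoRNAs guide methylation of the ribose and box H/ACA snoRNAs guide the change of uridine to pseudouridine. The joined exons of these hosts encode no known conserved protein, yet ribosomes engage them, so the spliced RNA is removed by nonsense-mediated decay (NMD), a pathway that depends on translation. Many hosts begin with a pyrimidine tract (5′TOP), the feature that ties ribosomal protein mRNAs to growth signals. *Gas5* is named for growth arrest, in which its spliced RNA is known to gather, and *Snhg* stands for snoRNA host gene.

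Start regions of the hosts are shown because a pyrimidine tract at the start is what hosts of this class are known for. Of the hosts printed, *Snhg8* and *Snhg5* passed as lower in KO, *Snhg12*, *Snhg3* and *Gas5* did not pass, and *Snhg1* was not analysed. Each window holds 40 bases before the RefSeq start and 20 bases from it, on the transcribed strand of GRCm38.p6. Capitals mark TATA and the longest pyrimidine tract near the start, as defined below. *Gas5* has 2 RefSeq starts, and the downstream one is printed (chr1:161035126-161035185, plus strand). The others are *Snhg8* (chr3:123508317-123508376, minus strand), *Snhg12* (chr4:132308638-132308697, plus strand), *Snhg5* (chr9:88522878-88522937, minus strand), *Snhg3* (chr4:132353667-132353726, minus strand) and *Snhg1* (chr19:8723447-8723506, plus strand). *Snhg6* is named only.
Gas5: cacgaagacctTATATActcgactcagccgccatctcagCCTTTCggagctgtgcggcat
Snhg8: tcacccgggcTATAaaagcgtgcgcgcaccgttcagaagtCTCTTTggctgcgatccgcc
Snhg12: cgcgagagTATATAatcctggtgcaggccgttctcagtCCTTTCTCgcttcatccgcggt
Snhg5: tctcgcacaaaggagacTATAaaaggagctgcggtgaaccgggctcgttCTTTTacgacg
Snhg3: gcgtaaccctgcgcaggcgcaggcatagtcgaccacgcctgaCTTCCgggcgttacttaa
Snhg1: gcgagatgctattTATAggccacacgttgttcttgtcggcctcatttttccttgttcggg
The letters TATA lay within 40 bases before the start in these windows of *Gas5*, *Snhg8*, *Snhg12*, *Snhg5* and *Snhg1*. A C followed by at least 4 pyrimidines (C or T) began within 10 bases of the start in all of them except *Snhg1*. Of 32851 RefSeq windows, 7.63% held TATA there, 30.7% held such a tract and 2.24% held both, as *Gas5*, *Snhg8*, *Snhg12* and *Snhg5* did. The upstream *Gas5* start had neither. The windows searched were set after these sequences had been seen, and a match is only a description of the letters.

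The reads counted on genes numbered 33605258 in the smallest library and 40558740 in the largest. Myoblast and myotube markers were present in all 6 libraries, and among the markers *Myog*, the transcription factor of early differentiation, lay between 1005 and 1709 CPM (reads relative to the library total, scaled by edgeR's TMM factors). Of the 8 markers, the myoblast transcription factor gene *Myod1* and the cadherin gene *Cdh15* were higher in KO (log2 fold changes 0.99 and 0.70, edgeR, adjusted p = 0.0141 and 0.0258), and *Myf5*, another myoblast transcription factor gene, was lower (−1.50, adjusted p = 0.0303). The RNA of the targeted gene, *Hnrnpa2b1*, was 159, 195 and 248 CPM in KO, in the order of the library numbers, against 225, 229 and 252 in WT, with a log2 fold change of KO over WT of −0.23 (adjusted p = 0.381, edgeR), so the RNA does not check the genotype labels. The KO libraries differed in their muscle genes. The summed CPM of 10 muscle differentiation genes was 19800 in KO1 against 8030 in KO2 and 7250 in KO3, with 13200 to 17300 in WT. *Acta1* gave 7023 CPM of the KO1 sum, against 2304 to 4188 in the other libraries. *Myog*, *Mymk*, *Mymx*, *Tnnt3* and *Des* were also highest in KO1. *Myh3* and *Myh8* were lower in KO1 than in every WT library, and *Ckm* and *Tnnc2* lay within the WT range. Markers of other cell types, 10 in all, summed to 101 CPM in KO1 and to 13.3 to 26.1 in the other libraries, where *Dcn*, a fibroblast-like marker, gave 90.6 CPM in KO1. Only 4 of them had enough reads to be tested, and the endothelial (*Pecam1*, *Cdh5*), immune (*Ptprc*), epithelial (*Epcam*, *Krt18*) and fat cell (*Adipoq*) markers lay under 0.3 CPM in every library, while the macrophage marker *Cd68* had 1.86 to 3.41 CPM (log2 fold change 0.47, edgeR, adjusted p = 0.262). Over all genes, 22.7% of 14828 passed an adjusted p of 0.05 (edgeR's quasi-likelihood test), 10.6% as lower in KO and 12.1% as higher.

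The question for each host was whether its RNA differed between KO and WT differentiating cells. *Snhg8* and *Snhg5* fell to about the same degree, *Snhg12* and *Snhg6* had lower means in KO but did not pass the test, and *Gas5*, the most abundant of these 6 hosts in TPM, showed no such difference, with the means in the other direction. Thus 2 of the 5 tested hosts passed as lower in KO, beside 10.6% of all genes, and 0 passed as higher, with DESeq2 and limma voom as with edgeR. In bulk RNA, fewer cells that express a gene and less RNA per cell cannot be told apart.

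*Snhg8*, the host of the single H/ACA snoRNA *Snora24*, showed the clearest separation. It had 18.8, 26.8 and 20.02 CPM in KO against 47.1, 43.0 and 42.3 in WT. Every KO library lay well under the lowest WT library. The means were 21.9 ± 4.27 in KO and 44.1 ± 2.57 in WT (SD, n = 3), a log2 fold change of −1.01 with a standard error of 0.16 and a 95% confidence interval of −1.39 to −0.63 (edgeR, adjusted p = 0.00650). The gene lies at chr3:123507552-123508404 on the minus strand of GRCm38, where its exons share no base with another gene. The change passed the test in all 12 alternative settings, with adjusted p up to 0.0404.

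*Snhg5*, the host of the C/D snoRNAs *Snord50a* and *Snord50b*, had 41.8, 51.9 and 51.1 CPM in KO and 91.7, 120 and 73.0 in WT. The groups did not overlap, and the WT libraries were more spread out than the KO libraries. The means were 48.3 ± 5.60 in KO and 94.7 ± 23.5 in WT (SD, n = 3), and the log2 fold change was −0.97 with a standard error of 0.19 and an interval of −1.42 to −0.52 (edgeR, adjusted p = 0.0131). This call rested in part on WT1, since without it the log2 fold change was −1.004 with adjusted p = 0.0533. *Snhg5* lies at chr9:88521050-88522929 on the minus strand, also free of shared exon bases.

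*Snhg12*, the host of H/ACA snoRNAs and of *Snord99*, had 19.1, 24.0 and 27.8 CPM in KO and 36.1, 45.9 and 26.0 in WT. WT3 lay between KO2 and KO3, so the groups overlapped. The log2 fold change was −0.61 with a standard error of 0.23 and an interval of −1.14 to −0.07 (edgeR, adjusted p = 0.0940). It was −0.40 without WT2 and ran to −0.82 without WT3. With no filter on low counts it passed, at −0.63 and adjusted p = 0.0129.

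*Snhg6*, the host of *Snord87*, had 13.8, 17.5 and 17.9 CPM in KO and 20.2, 23.2 and 19.8 in WT. The groups did not overlap, but KO3 and WT3 were close. Its log2 fold change of −0.36 (standard error 0.16, interval −0.72 to 0.01) did not pass the test (edgeR, adjusted p = 0.138). In its exons 11.1% of the bases are shared with *Mcmdc2* on the other strand, and whether the counting used strand is not stated.

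*Gas5*, the host with the most snoRNAs, had 86.8, 92.3 and 98.2 CPM in KO and 79.2, 101 and 81.2 in WT. All 3 KO values lay within the WT range. The log2 fold change was 0.08 (standard error 0.14, edgeR, adjusted p = 0.686), and the interval of −0.23 to 0.40 corresponds to a fold of 0.850 to 1.32. A fall as large as the estimates for *Snhg8* and *Snhg5* lies outside that interval. The gene lies at chr1:161034422-161038539 on the plus strand and has 25 annotated transcripts, of which 20 are retained intron models.

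*Snhg3* could not be tested by counts, with 1 read in KO1 and 0 in the other libraries. Of its 986 annotated exon bases, 83.3% are shared with *Rcc1*, a nuclear exchange factor gene, or *Gm17300* on either strand. The part of this overlap in the low count was not tested.

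**Figure D1:**
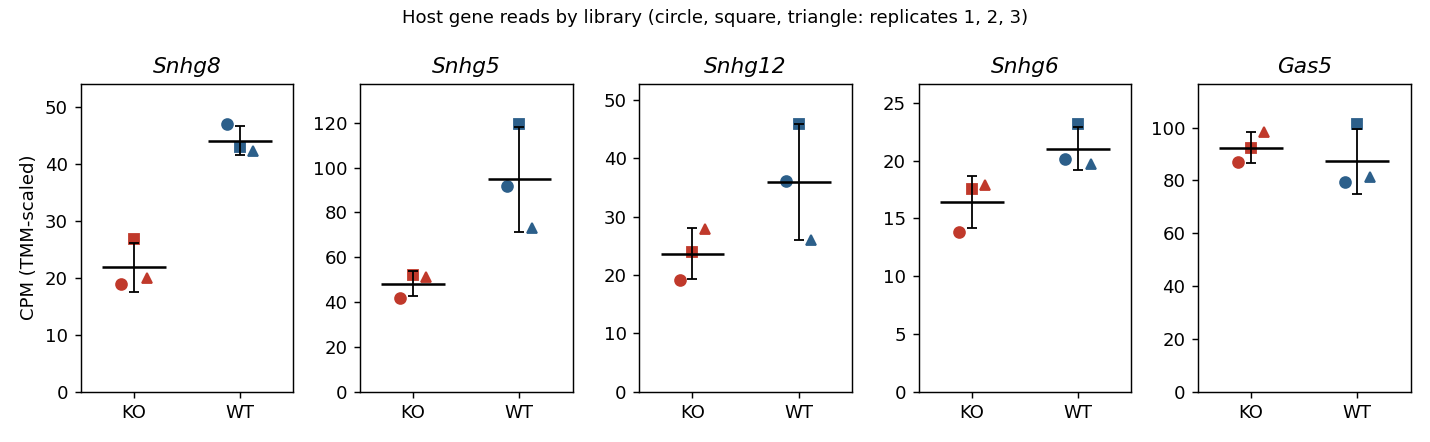
TMM-scaled CPM of the 5 tested hosts in each library (red KO, blue WT; circle, square and triangle for replicates 1, 2 and 3), with the mean as a line and the SD as a bar, each panel on its own axis from 0. KO and WT do not overlap for *Snhg8*, *Snhg5* and *Snhg6*, whereas WT3 of *Snhg12* lies among the KO libraries and the *Gas5* groups overlap.

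Exact permutation tests of 3 libraries against 3 cannot go under p = 0.1 (two-sided). They gave 0.1 for *Snhg8*, *Snhg5* and *Snhg6*, 0.2 for *Snhg12* and 0.6 for *Gas5*. Every KO library lay below every WT library in 3 of the 5 tested hosts, and this held for 21.6% of all tested genes. KO1 was the lowest of all 6 libraries for *Snhg5*, *Snhg6*, *Snhg8* and *Snhg12*. It is also the library with the high muscle differentiation sum, of which *Acta1* was the largest part. Without KO1 the same 2 hosts passed, with log2 fold changes of −0.92 for *Snhg8* and −0.88 for *Snhg5* (edgeR, adjusted p = 0.00595 and 0.0146).

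TPM, which corrects for transcript length, allowed levels to be compared between hosts. In WT the mean TPM was 85.7 for *Gas5*, 79.4 for *Snhg5*, 65.3 for *Snhg8*, 34.4 for *Snhg12*, 24.8 for *Snhg6* and 4.22 for *Snhg3*. The WT ranges of *Gas5* (72.5 to 105), *Snhg5* (55.6 to 101) and *Snhg8* (58.4 to 71.9) were not all separate, as *Snhg5* overlapped both of its neighbours. In KO the order was the same, with means of 87.4, 36.9, 32.8, 23.6, 16.8 and 2.70 TPM. The ranges of *Snhg12* and *Snhg6* overlapped in both genotypes, though within every single library *Snhg12* was the higher. In KO *Gas5* (73.1 to 107) stood above all *Snhg5* values (28.7 to 44.8). The KO ranges of *Snhg5*, *Snhg8* (26.4 to 40.1) and *Snhg12* (18.2 to 30.8) each overlapped the next, though *Snhg8* exceeded *Snhg12* within each KO library.

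In TPM the same 2 hosts passed as lower in KO, beside 11.9% of the 11691 genes tested with limma on log2(TPM + 1). None passed as higher, beside 8.59% of those genes, so that 2 of 6 passed in either direction, beside 20.5%. *Snhg8* had a log2 difference of −0.99 (standard error 0.18, limma, adjusted p = 0.00813) and *Snhg5* one of −1.06 (standard error 0.24, limma, adjusted p = 0.0185). *Snhg6* had 13.9, 17.1 and 19.4 TPM in KO and 25.1, 28.4 and 20.9 in WT, a log2 difference of −0.54 (limma, adjusted p = 0.0603). Counts gave *Snhg3* 1 read in KO1 and 0 in the other libraries, and 83.3% of its exon bases are shared with *Rcc1* or *Gm17300*. How much of its TPM comes from reads of those genes was not tested. In TPM *Snhg3* had 2.34, 3.21 and 2.55 in KO and 5.92, 3.48 and 3.25 in WT. All 3 KO values were below the WT values, but KO2 and WT3 were close and the log2 difference of −0.47 did not pass (limma, adjusted p = 0.146). Without WT1, its highest library, it was −0.24 (adjusted p = 0.465). *Snhg12* at −0.50 (adjusted p = 0.214, from −0.26 without WT2 to −0.75 without WT3) and *Gas5* at 0.03 (adjusted p = 0.933) overlapped between genotypes. Without WT1 neither *Snhg8* (−0.92, adjusted p = 0.0585) nor *Snhg5* (−1.02, adjusted p = 0.0925) passed in TPM, and without WT2 *Snhg5* did not (−0.87, adjusted p = 0.0535).

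**Figure D2:**
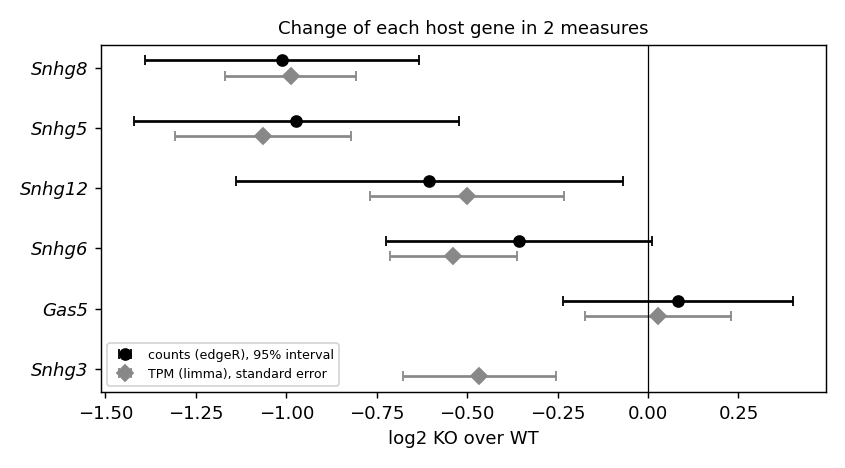
Log2 change of KO over WT for each host from counts (black circles, edgeR, bars are 95% intervals) and from TPM (grey diamonds, limma on log2(TPM + 1), bars are standard errors). *Snhg8* and *Snhg5* lie near −1 in both measures and *Gas5* lies near 0, while *Snhg3* has a TPM value only.

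The ratio of each host to *Gas5* within a library needs no scaling between libraries. It was computed after the host values had been seen. *Snhg5* had 0.482, 0.562 and 0.521 reads per *Gas5* read in KO and 1.16, 1.18 and 0.899 in WT. *Snhg8* had 0.217, 0.290 and 0.204 in KO and 0.594, 0.424 and 0.521 in WT. Both ratios were lower in every KO library than in any WT library. *Snhg12*, which overlapped in CPM, had 0.221, 0.260 and 0.283 in KO and 0.456, 0.453 and 0.320 in WT. For *Snhg6* the ratio was 0.159, 0.190 and 0.182 in KO and 0.254, 0.229 and 0.243 in WT. As ratios, all 4 hosts were lower without overlap (each p = 0.1 by the exact permutation test, two-sided), as were 18.8% of the 14827 tested genes set against *Gas5*. *Gas5* was taken as the divisor with its own values known, so the separation adds no independent support. The log2 differences were −1.04, −1.12, −0.68 and −0.45 in that order. *Gas5* accordingly took 48.1%, 43.4% and 45.7% of the summed CPM of the 5 hosts in KO, and 28.9%, 30.5% and 33.5% in WT.

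**Figure D3:**
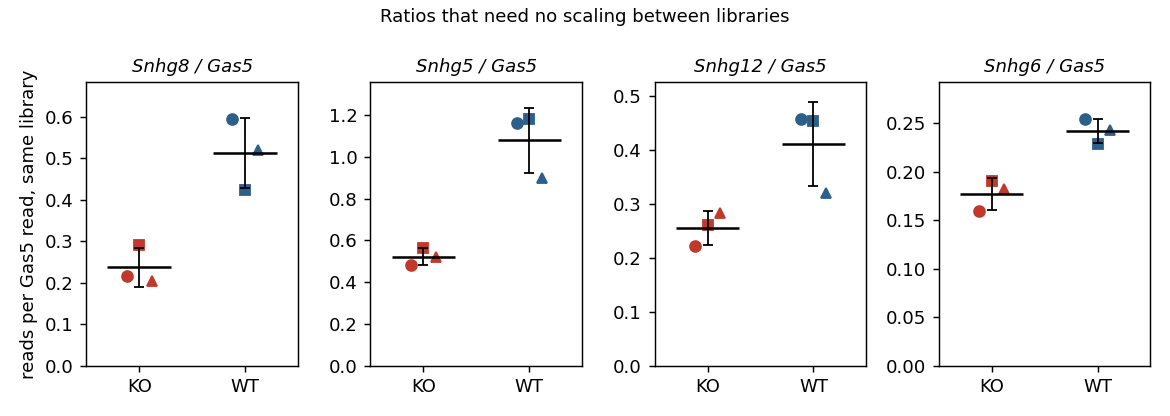
Reads of *Snhg8*, *Snhg5*, *Snhg12* and *Snhg6* per *Gas5* read in the same library (red KO, blue WT; symbols are replicates 1 to 3, lines are means, bars are SD). In each panel all 3 KO ratios lie below all 3 WT ratios.

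Total RNA libraries of this kind are not made to retain RNAs as short as snoRNAs, and the part of length in the values below was not tested. In GENCODE M21, 29 snoRNAs lie inside the 7 hosts. All 10 in *Gas5*, both in *Snhg5* and *Snhg3* and the one in *Snhg8* had 0 reads in every library. In *Snhg12*, 4 of 5 were at 0 and the fifth had 3 reads. *Snord87* in *Snhg6* had 64 reads in all. The 8 rows inside *Snhg1* (chr19:8723475-8726443, plus strand) held 5448. In the annotation, the snoRNAs of *Gas5*, *Snhg5*, *Snhg8* and *Snhg12* lie entirely within retained intron or other exon models of a host whose reads were also counted, so a read there can be claimed by 2 genes. A count of 0 therefore gives no limit on the snoRNA. Those of *Snhg1* also lie within exon models of their host, whose own reads were not analysed here, and they are the rows with the most reads. What these reads are was not tested, and they may be snoRNA, unspliced host or retained intron.

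The snoRNA *Gm22680*, the row described most fully below, and those of the hosts that fell, which had 0 reads, are printed from GENCODE M21 transcripts, 5′ to 3′, to show what each host carries. Capitals mark the C box (TGATGA) and D box (CTGA) of *Gm22680*, *Snord50a* and *Snord50b*, and the ACA box of *Snora24*. *Gm22680* lies inside *Snhg1* at chr19:8725341-8725409 on the plus strand, *Snord50a* and *Snord50b* inside *Snhg5* at chr9:88521529-88521600 and chr9:88521797-88521868, and *Snora24* inside *Snhg8* at chr3:123507937-123508066, all 3 on the minus strand.
Gm22680: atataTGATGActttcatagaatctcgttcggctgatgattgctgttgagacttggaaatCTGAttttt
Snord50a: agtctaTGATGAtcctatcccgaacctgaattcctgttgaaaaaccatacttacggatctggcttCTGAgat
Snord50b: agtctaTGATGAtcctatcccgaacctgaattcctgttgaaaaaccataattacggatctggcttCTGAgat
Snora24: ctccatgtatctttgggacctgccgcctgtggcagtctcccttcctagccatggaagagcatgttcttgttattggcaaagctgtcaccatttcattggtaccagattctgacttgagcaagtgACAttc
Searched on the transcript strand, TGATGA in the first 15 and CTGA in the last 15 bases occurred in 14 of the 29 snoRNAs and in 19.5% of the 1507 annotated snoRNA transcripts. ACA ending 3 bases before the end occurred in 7 of the 29 and in 18.3% of all.

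Inside *Snhg1*, 1 of the 8 snoRNA rows rose in KO and the other 7 did not pass the test. Summed over the 8 rows, CPM was 22.5, 25.9 and 39.4 in KO and 14.3, 18.9 and 21.2 in WT, from 494 to 1613 reads a library. All KO sums were above all WT sums (exact two-sided permutation test, p = 0.1), as in 22.7% of all tested genes, with KO1 and WT3 close and KO3 the highest. The fitted change was positive in 7 of the 8 rows, and the 1 of 8 that passed is a share near the 12.1% of all genes called higher, so the count says nothing particular about these rows. It was *Gm22680*, with 5.23, 6.82 and 8.76 CPM in KO and 1.65, 2.90 and 2.48 in WT. The lowest KO library was above the highest WT library, and the log2 fold change was 1.57 (standard error 0.30, edgeR, adjusted p = 0.0119). In TPM the log2 difference was 1.49 (limma, adjusted p = 0.00743), and again only this row of the 8 passed.

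As a share of the reads of the 8 rows, *Gm22680* made up 23.3%, 26.3% and 22.3% in KO and 11.5%, 15.3% and 11.7% in WT. This describes the same rise, since the row was picked for having the largest fold change of the 8. *Gm25894* had 4.98, 6.02 and 10.3 CPM in KO and 3.27, 3.50 and 5.50 in WT, where WT3 exceeded KO1, and its log2 fold change was 0.79 (edgeR, adjusted p = 0.125). The other 6 rows ran from −0.10 (*Gm23246*) to 0.76 (*Gm22744*), and *Snord22* was at 0.19 (edgeR, adjusted p = 0.670). Without WT1 or WT3 the call for *Gm22680* was lost, at 1.36 and 1.58 with adjusted p = 0.0564 and 0.0529.

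**Figure D4:**
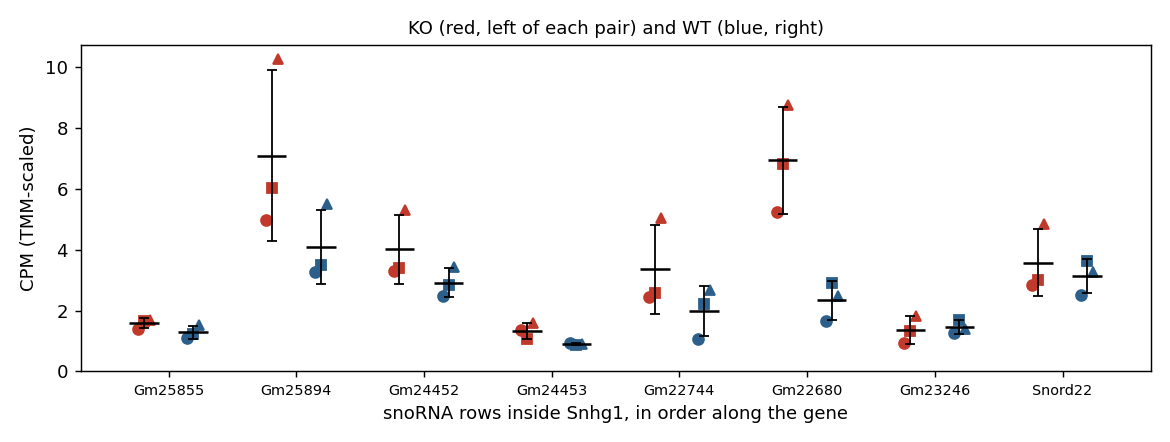
TMM-scaled CPM of the 8 snoRNA rows inside *Snhg1*, in their order along the gene, with KO in red on the left and WT in blue on the right of each pair (symbols are replicates 1 to 3, lines are means, bars are SD). *Gm22680* is separated widest, and KO3 is the highest library in each row.

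The genes surrounding each host are given beside it, as a description. The median log2 fold change of tested genes within 5 Mb on either side, hosts and their snoRNAs left out, was −0.24 around *Snhg1* (220 genes), 0.27 around *Snhg8* (51 genes) and 0.22 around *Gas5* (62 genes). It lay between −0.01 and 0.05 around *Snhg5*, *Snhg3*, *Snhg6* and *Snhg12*, beside 0.03 over all tested genes. Within 2 Mb the value was 0.04 around *Snhg8*, −0.32 around *Snhg1*, −0.12 around *Snhg5*, 0.14 around *Snhg6* and 0.23 around *Gas5*, with 0.0025 around *Snhg3* and 0.0037 around *Snhg12*.

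The genes next to the hosts mostly did not pass the test. Beside *Snhg1*, *Slc3a2*, which encodes an amino acid transporter chain and begins 106 bases from it on the other strand, was at −0.44 (edgeR, adjusted p = 0.153), and *Wdr74*, a ribosome assembly factor gene, was lower at −0.63 (edgeR, adjusted p = 0.0439). Beside *Snhg5*, *Syncrip*, which encodes an RNA-binding protein, was at 0.38 and the zinc finger gene *Zfp949* at −0.38. Beside *Snhg8*, *Prss12*, a protease gene, was at 0.57 and *Ndst3*, a heparan sulfate enzyme gene, at −0.79, both at under 4 CPM on average in either genotype. *Trnau1ap*, a selenocysteine tRNA factor gene, lies between *Snhg12* and *Snhg3* and was at −0.60 (edgeR, adjusted p = 0.0630). On the other sides, the transcription factor subunit gene *Taf12* was at 0.16 and *Phactr4* at 0.79. *Rcc1* and *Gm17300*, which overlap *Snhg3*, were at 0.16 and 0.21. Around *Snhg6*, *Mcmdc2* was at 0.82, the kinase gene *Sgk3* at 1.10 and *Cops5*, a signalosome subunit gene, at 0.12. Around *Gas5*, *Zbtb37* was at 0.59 and the RNA-binding gene *Rc3h1* at 0.40. Apart from *Wdr74*, none of these neighbours passed (edgeR, adjusted p of 0.0614 or more), beside 22.7% of all tested genes called in either direction.

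Other noncoding hosts were set beside them. Of 12 listed, 7 were tested, 1 passed as lower, beside 10.6% of all genes, and 0 as higher. The median log2 fold change was 0.11, but −0.41 without KO3 and −0.056 without WT1, so its direction rested on single libraries. The one that passed was *Snhg15*, with 11.4, 12.9 and 13.1 CPM in KO and 18.7, 21.1 and 20.3 in WT. Its genotypes were well apart, and the log2 fold change was −0.68 (standard error 0.14, edgeR, adjusted p = 0.0145). The call was lost without WT1 or without WT3, fits in which 933 and 1288 of all genes passed, against 3361 with all libraries. In TPM it was at −0.68 as well (limma, adjusted p = 0.0188). *Zfas1*, about as abundant as *Gas5*, had 83.2, 92.6 and 74.8 CPM in KO and 78.2, 84.9 and 68.7 in WT, overlapping groups with a log2 fold change of 0.11. *Snhg4* was at 0.26 (edgeR, adjusted p = 0.488). *Snhg20*, singled out after its values were seen, differed between the measures, with a log2 fold change of −0.27 in counts (edgeR, adjusted p = 0.466) and a log2 difference of −1.27 in TPM (limma, adjusted p = 0.0201).

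Protein-coding hosts, most of them ribosomal protein and translation factor genes, carry snoRNAs in the same manner, but their spliced RNA is translated into protein. Of 33 tested, 8 passed as lower in KO and 0 as higher, 27 were lower in direction, and the median log2 fold change was −0.54, beside 10.6% lower, 12.1% higher and a median of 0.03 over all genes. The 2 largest falls were in *Rpl23a*, a large subunit protein gene, and *Rpsa*, a small subunit protein gene. *Rpl23a* had 258, 258 and 154 CPM in KO and 538, 496 and 454 in WT, and its log2 fold change was −1.15 (standard error 0.22, edgeR, adjusted p = 0.0114). *Rpsa* had 1119, 1666 and 975 CPM in KO and 2848, 2854 and 2215 in WT, and its log2 fold change was −1.07 (standard error 0.26, edgeR, adjusted p = 0.0245). Both had KO libraries far below WT. *Eef2*, the elongation factor that moves the ribosome, was at −0.66 (edgeR, adjusted p = 0.0873), and *Atp5b*, a subunit of ATP synthase, at −0.42 (adjusted p = 0.196). The 6 that were positive in direction were *Nop58*, *Nop56*, *Dkc1*, *Ncl*, *Rcc1* and *Eif4a1*, of which the first 3 encode snoRNA-binding proteins, at 0.52, 0.48 and 0.42, and none passed. Single libraries decided how many passed: 0 when WT1 was left out, 2 for KO3, 2 for WT3, 4 for WT2 and 15 for KO2. Over all genes those fits called, in that order, 933 of 15521, 2088 of 14989, 1288 of 15272, 2100 of 15408 and 2695 of 15202. The median log2 fold change of the list moved less, from −0.38 without KO3 to −0.68 without KO2, and over all genes the number called fell from 3361 to 933 without WT1. With library totals in place of TMM factors 5 passed, beside 3469 of 14828 genes. With DESeq2 17 passed as lower and 0 as higher, beside 2021 lower and 2128 higher among the 30252 genes with a count.

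No gene of the decay machinery passed the test. Over all 14828 tested genes, 22.7% passed in edgeR and 5781 had an unadjusted p under 0.05. Among 16 NMD factors, 0 passed in edgeR, DESeq2 or limma voom and 3 had an unadjusted p under 0.05. The median log2 fold change of these factors was 0.05, with a range of −0.41 to 0.42. *Etf1*, the factor that recognises stop codons, was at 0.02 and *Smg6*, the endonuclease of the pathway, at 0.11. Among 6 genes of the exon junction complex, which marks spliced junctions for decay, 0 passed in these 3 tools and 1 had an unadjusted p under 0.05. The all-gene values beside them are the same 22.7% and 5781 of 14828. The median was −0.01 for the complex. Its helicase *Eif4a3* was at −0.07 and *Rbm8a* at −0.15. The 6 coding transcripts described as decay targets, which stress also raises, had a median of −0.52. In edgeR 0 passed and 4 had an unadjusted p under 0.05, while DESeq2 and limma voom called 2 each as lower. Over all genes, edgeR called 10.6% of 14828 as lower, limma voom 1701 of 14828 and DESeq2 2021 of the 30252 genes with a count. DESeq2 was run without the filter on low counts, so its share is over more genes and is not comparable with the other 2. *Atf4*, a stress transcription factor, was at 0.20 and *Gadd45a*, a stress-induced gene, at −0.47. Without KO1, 2 NMD factors and 2 of these targets passed, beside 4712 of 15409 genes.

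The proteins that bind and assemble snoRNAs had a median of −0.04, and of 18 tested 2 passed as lower, a share near the 10.6% of all genes. They encode core proteins of H/ACA particles. *Nop10* had 49.3, 33.2 and 26.7 CPM in KO and 62.2, 57.1 and 60.4 in WT (log2 fold change −0.72, edgeR, adjusted p = 0.0478). *Nhp2* had 53.1, 60.3 and 39.4 in KO and 83.4, 83.9 and 76.9 in WT (log2 fold change −0.68, edgeR, adjusted p = 0.0262). Neither call held without WT1 or WT3. *Dkc1*, the pseudouridine synthase of the same particle, had 55.5 CPM in KO and 41.4 in WT on average and did not pass.

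**Figure D5:**
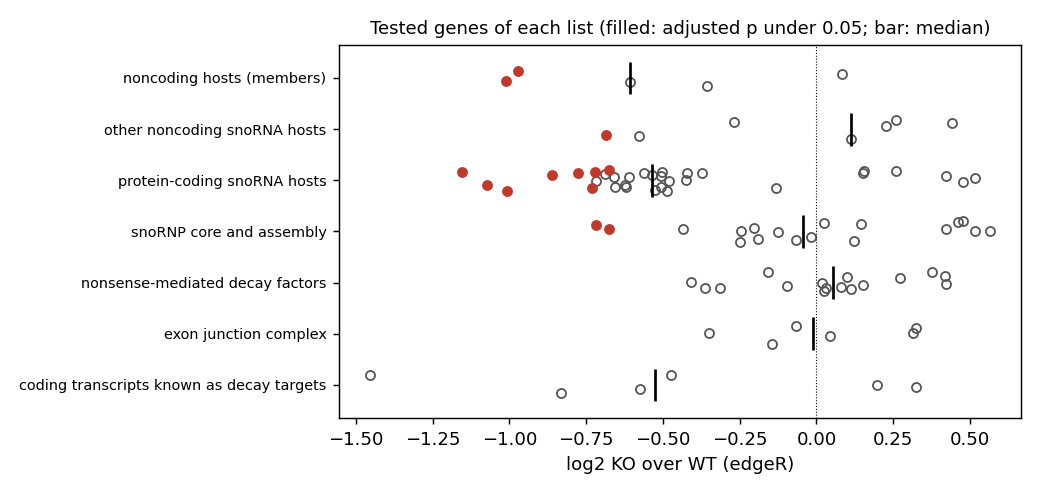
Log2 fold change of KO over WT (edgeR) of each tested gene in the host, snoRNA particle and decay lists, where filled red points passed an adjusted p of 0.05, open points did not, and bars are medians. The protein-coding hosts lie mostly left of 0 with 8 filled points, while the NMD factors and the exon junction complex spread around 0 with none filled.

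Because *Gas5* is tied to growth arrest, cell cycle genes are given beside it. Of 10 proliferation genes, 2 passed as higher in KO, beside 12.1% of all genes, the nucleotide synthesis genes *Rrm2* (log2 fold change 1.78, edgeR, adjusted p = 0.00488) and *Tyms* (1.13, adjusted p = 0.0281), and 0 as lower, with a median of 0.48 that was 0.28 without KO2 and 0.72 without KO1. The number that passed was 6 without KO1, beside 4712 of 15409 genes, and 1 without KO2, KO3, WT1 or WT3. The summed CPM of the 10 genes was 617, 712 and 724 in KO and 381, 390 and 457 in WT. Without *Rrm2* the other 9 summed to 310, 556 and 511 in KO and 308, 337 and 386 in WT, so KO1 was no longer above all WT libraries. The 10 muscle differentiation genes had a median of −0.35, which was −0.78 without KO1, −0.12 without KO2, −0.11 without KO3 and −0.20 without WT1. In edgeR 0 passed, beside 22.7% of all genes, and 2 had an unadjusted p under 0.05, beside 5781 of 14828. DESeq2 and limma voom each called 1, beside 4149 of the 30252 genes with a count and 3367 of 14828. Without KO1, however, 6 passed in edgeR, beside 4712 of 15409 genes. Among markers of other cell types, *Pdgfra*, a fibroblast-like marker, passed as higher (1.17, edgeR, adjusted p = 0.0257). This call was lost without KO3 and without any single WT library. The part of cell cycle, differentiation state and other cells in the host values was not tested.

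Across the 6 libraries, centred on each gene's own mean, the average log2 profile of the 5 tested hosts was −0.49, −0.17 and −0.19 in KO and 0.27, 0.50 and 0.08 in WT. WT2 was highest and KO1 lowest. Among 5246 genes whose mean log2 CPM reached 5, the closest by root mean square difference were *Mxra7* (0.0821), the G protein subunit gene *Gng5* (0.0870), *Snd1* (0.0882), which encodes an RNA-binding nuclease, the calponin gene *Cnn3* (0.0923) and the collagen receptor gene *Mrc2* (0.0954). The likeness is a description over 6 libraries.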

How the data were processed

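RNA from 3 KO and 3 WT C2C12 libraries was analysed. The authors trimmed and aligned the reads (Trim Galore and STAR), and deposited raw read counts per gene (featureCounts, per the labels) and StringTie TPM values per library. All 6 count columns were used and 0 left unused. The methods name GRCm39 and the submitters' processing notes mm9, but deposited gene positions fit GRCm38 (83.2% of 45137 genes share start and end with GENCODE M21), which is used here. The counter's version and strand setting are not given in the sources used here.

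Counts were scaled with TMM, filtered with filterByExpr (14828 of 30252 genes with a count kept) and tested with edgeR 4.0.16's two-sided quasi-likelihood test on genotype, Benjamini-Hochberg threshold 0.05, in R 4.3.3. The study's DESeq2 (1.42.0) was an alternative, as were RLE factors, library totals, no filter, limma voom, a replicate block and leaving out each library. Genes reaching 1 TPM in 3 or more libraries were tested with limma 3.58.1 on log2(TPM + 1). At an unadjusted p under 0.05, 5781 genes differed. Single values were compared by exact permutation, and both fits were tested on simulated data. A count of at most 3 was taken as the floor.

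Hosts and lists were chosen with earlier results of these data known. Named genes were all hosts, called genes of each list (4 or fewer, otherwise the 2 largest changes in each direction) with up to 2 abundant uncalled ones, neighbours of each host (not all are reported here), and the 5 genes of most similar profile. *Nop58*, *Nop56*, *Dkc1* (as a core protein), *Ncl*, *Rcc1*, *Eif4a1*, *Gm25894*, *Gm23246*, *Gm22744*, *Snord22*, *Dcn* and other cell markers, and *Snhg20* were named after their values were seen. Sequences are from RefSeq (promoters, GRCm38.p6) and GENCODE M21 (snoRNAs).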

Additional observations from a re-analysis of the deposited data

How the results depend on the processing

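The change of *Snhg8* in counts kept its call in all 12 alternatives, and *Snhg6* and *Gas5* stayed uncalled in all 12. Leaving out each library gave 933 (without WT1) to 4712 (without KO1) called genes, 460 to 2381 higher and 473 to 2331 lower, with 1 to 2 hosts called lower in counts and 0 to 2 in TPM. Over those fits *Snhg5* ran from −1.16 to −0.78 in counts and from −1.30 to −0.87 in TPM, *Snhg8* from −1.14 to −0.85 in TPM, and *Gas5* from −0.13 to 0.18 in TPM, turning negative without KO3 (−0.13), WT1 (−0.016) or WT3 (−0.082). *Gm22680* ran from 1.36 to 1.74, *Gm23246* from −0.37 to 0.11 and *Snord22* from −0.089 to 0.32, the last 2 with changes of sign (*Gm23246* log2 fold change 0.11 without KO1 and 0.019 without WT2, *Snord22* log2 fold change −0.089 without KO3), and *Gm25894* passed without KO1 (0.98). With no filter on TPM 1 host was called, as *Snhg5* at −1.06 had adjusted p = 0.0967, and with no filter on counts *Snhg12* passed at −0.63. Library totals alone moved the median of all genes from 0.03 to 0.15 and the split from 1796 higher and 1565 lower to 2295 and 1174, and turned *Gm23246* to 0.027. The cause of these moves was not tested.

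Replicate numbers were not taken as pairs, since deviations of libraries with the same number correlated at 0.14, −0.12 and 0.00, and not every library matched its own number best. With the number as a replicate block 2520 genes and the same 2 hosts passed, *Snhg5* at −0.95 and *Snhg8* at −1.03.

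The list counts below stand beside these calls over all genes. RLE factors called 3383 of 14828, library totals 3469 of 14828 and DESeq2 4149 of the 30252 genes with a count. Leaving out KO1, KO2 or KO3 gave 4712 of 15409, 2695 of 15202 and 2088 of 14989. Leaving out WT1, WT2 or WT3 gave 933 of 15521, 2100 of 15408 and 1288 of 15272. Among other lists, 2 other noncoding hosts passed with RLE factors or without KO1, and 0 without WT1 or WT3. Of the snoRNA particle genes, 1 passed with library totals or without KO3 and 0 without WT1 or WT3. DESeq2 called 2 other noncoding hosts and 4 proliferation genes. Of the proliferation genes, 6 passed without KO1, and 1 without KO2, KO3, WT1 or WT3. *Pdgfra* lost its call without KO3 or any WT library. With library totals 1 NMD factor and 1 muscle differentiation gene passed, and 1 decay target passed with RLE factors or without WT3. *Snhg3* and most snoRNA rows hold too few reads to test, and the cause was not tested.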
